A study of Mus musculus with 7 samples.

Results

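A set of 10 genes encoding factors by which bone cells support blood formation or direct osteoclasts were taken by symbol from the deposited gene counts of sorted osteoblasts: Lepr, Jag1, Cxcl12, Kitl, Vcam1, Il7, Angpt1, Csf1, Tnfsf11 and Tnfrsf11b. Each of the 10 symbols matched 1 of the 23725 Entrez gene IDs in the files. Only Lepr and Jag1 had enough counts for a test of mice with lung tumors against mice without, and neither passed. The other 8 genes together had 71 counts over all 7 libraries.

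Bone marrow holds blood-forming cells beside mesenchymal cells that keep and feed them. CXCL12 retains haematopoietic cells through the receptor CXCR4, KIT ligand maintains stem and mast cells through KIT, VCAM1 binds the integrin that contains Itga4, interleukin 7 supports lymphoid precursors, and angiopoietin 1 signals to the receptor TEK. Cells of the osteoblast lineage also set the number of osteoclasts, the bone-resorbing cells of the monocyte lineage: CSF1 and RANKL (encoded by Tnfsf11) drive their formation through CSF1R and RANK (encoded by Tnfrsf11a), and the decoy receptor osteoprotegerin (encoded by Tnfrsf11b) binds RANKL. The leptin receptor marks the perivascular stromal cells that make most CXCL12 and KIT ligand, and Jagged1 is a ligand of Notch receptors.

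Cells came from male C57BL/6 mice of a line with Cre-dependent tumor alleles, p53Flox/Flox among them, and with a GFP reporter of osteocalcin (Ocn-GFP), 4 tumor-bearing and 3 tumor-free and matched by litter, with 1 library of 2000 sorted cells per mouse. Lung tumors were started by adenovirus carrying Cre given into the trachea, and mice were killed 14 weeks later; the protocol text is the same for all samples, so what the tumor-free mice received instead is not known here. Both groups carried these alleles. GFP-positive cells without CD45, CD31 and the erythroid marker were sorted from digested bone pooled with lineage-depleted marrow, so the gate rests on the reporter's osteocalcin promoter. The ages were 23 weeks for 1 mouse of each group (replicate 4 with and replicate 3 without a tumor) and 31 weeks for all others. Libraries held 77127 to 169774 counts of transcript 3′ ends. On these unscaled totals a count of 0 allows, by library, up to 17.7 to 38.9 CPM (counts scaled to a common library total of 1e+06). In a single fit over 2495 genes with age in the model, edgeR's quasi-likelihood test called 0.00% of genes (lowest adjusted p = 0.990, with 25 genes higher and 42 lower at an unadjusted p under 0.05). Osteoblast transcripts were present but uneven. All 15 listed osteoblast markers had a count in some library, and 7 had enough counts for the test. Col1a1 had 23 to 96 counts per library and Runx2 7 to 35. Alpl had 1 to 7 counts, Sp7 0 to 2 and osteocalcin itself, Bglap, 0 to 2. The endothelial marker Pecam1 was at 0 in all 7 libraries.

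Lepr had the most counts of the 10 genes, a mean of 85.4 per library and a range of 58 to 123. Jag1 followed with a mean of 45.1 counts and a range of 8 to 186. In CPM the range of Lepr (564 to 933) lay inside that of Jag1 (110 to 1809), so the order of these neighbours rests on their means. Il7 came next with a mean of 3.14 counts and had a count in every library, as had Cxcl12 (mean 1.71). Csf1 had a mean of 1.71 counts and was found in 6 libraries, Kitl 1.14 in 3 libraries, Vcam1 0.857 in 4, Angpt1 0.571 in 3, Tnfrsf11b 0.571 in 1 and Tnfsf11 0.429 in 2. The groups overlapped for all 10 genes. Of the 2495 genes tested, Lepr and Jag1 among them, 3.53% had groups that did not. That share does not cover the other 8 genes, which were not tested. The 8 sparse genes had at most 5 counts in any library, and their ranges overlapped one another, so their order is not resolved. Among the 13344 genes with a count in any library, the mean CPM of Lepr was above that of 97.8%, of Jag1 94.4%, of Il7 68.4%, of Cxcl12 61.4% and of Tnfsf11 27.6%. These are counts of 3′ ends, not divided by transcript length. In sorted cells a lower count cannot be told apart from fewer cells that express the gene.

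**Figure D1:**
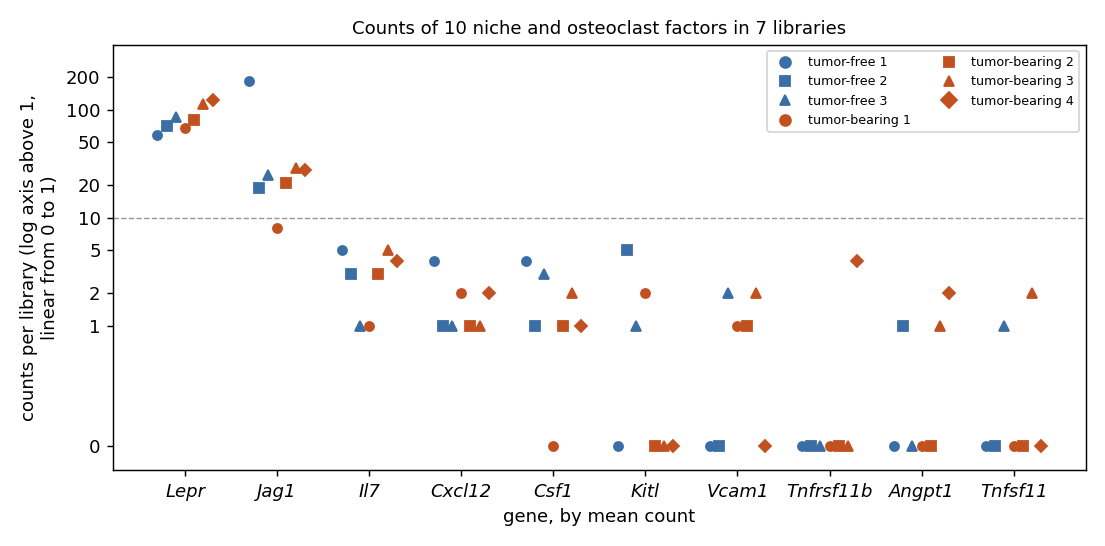
Counts of the 10 genes (x axis) in each of 7 libraries (points; y axis in counts, linear from 0 to 1 and logarithmic above), tumor-free in blue and tumor-bearing in orange. The dashed line stands at 10 counts, the minimum count given to the low count filter. The filter scales this minimum to library size, so the line is not its limit in each library. Lepr lies above the line in every library, Jag1 in 6 of 7, and the other 8 genes never exceed 5 counts.

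Lepr, the receptor of the adipocyte hormone leptin (Entrez 16847, chromosome 4, 101717137 to 101815352, mm10), had 58, 71 and 85 counts in tumor-free replicates 1 to 3 and 68, 81, 112 and 123 counts in tumor-bearing replicates 1 to 4. On the CPM scale these were 564, 603 and 685 without a tumor, and 933, 851, 629 and 839 with one. Of the tumor-bearing libraries, 3 lay above every tumor-free library, and tumor-bearing replicate 3 lay inside the tumor-free range, so the groups overlap. The means were 813 ± 129 CPM (SD, n = 4) with and 617 ± 61.7 CPM (SD, n = 3) without a tumor. The log2 fold change was 0.40 (SE 0.21, 95% interval -0.09 to 0.89), which did not pass edgeR's quasi-likelihood test (unadjusted p = 0.0931, adjusted p = 0.990 over all genes). Of all genes tested, 14.0% had a log2 fold change at or above it. The exact two-sided permutation test on CPM over 35 splits gave p = 0.0857, with 0.0286 the smallest possible. Among 31-week mice alone the means were 804 ± 157 CPM (SD, n = 3) against 583 ± 27.2 CPM (SD, n = 2; exact permutation p = 0.2, smallest possible 0.1), and the 23-week pair had 839 with and 685 CPM without a tumor.

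The count of Lepr does not say which receptor form was read. GENCODE vM21 lists 4 protein-coding Lepr transcripts with 4 different 3′ ends. Lepr-201, with a coding length of 3486 bases, is the long form that carries the signalling tail, and ends at 101815352. Lepr-203, with a coding length of 2682 bases, ends at 101813667 after a 3′ untranslated region of 2305 bases, and Lepr-202 ends at 101792258. The deposited counts sum over all ends of a gene. No gene overlapped Lepr or Jag1 on either strand in that annotation.

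Lepr was the only one of the 10 genes whose protein-coding transcripts held 25-base sequences found in transcripts of at least 50 genes. A read made up of one cannot be placed in a single gene by its letters alone, and how such reads were counted is unknown here. All 46 lay in Lepr-203. The one shared most widely, printed here in transcript orientation, was found on either strand in the transcripts of 239 of 21033 genes, and lies in the 3′ untranslated region of Lepr-203 (plus strand, chr4:101811906-101811930, GRCm38), 1738 bases before its end.
Lepr-203: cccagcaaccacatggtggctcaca
The other 9 genes, Jag1 among them, had 0 such sequences in all of their protein-coding transcripts.

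Genes that hold these sequences were closer to Lepr in their profile over libraries than genes that do not. The genes with the profile most like that of Lepr over the 7 libraries were Tor4a, P3h3 and Zfp408, with root mean square differences in centred log2 CPM of 0.0674, 0.0700 and 0.0771. P3h3, for example, had 53, 67 and 90 counts in tumor-free and 62, 74, 108 and 115 in tumor-bearing libraries, close to Lepr in each. Of the 20 nearest profiles, 19 belonged to genes with a GENCODE transcript, and 17 of these held at least 1 of the 46 sequences. The share was 9.58% of the 2275 tested genes with a transcript, and 16.7% of those with a mean of 60 to 120 counts. The median difference from Lepr was 0.246 for the 218 tested genes that held one and 0.483 for the 2057 that held none. Among genes with a mean of 60 to 120 counts, near the level of Lepr, these medians were 0.173 (74 genes) and 0.401 (370 genes). Tor4a itself held none in the transcript searched. This comparison was chosen after the profiles were seen.

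The same genes also lay on the higher side with a tumor, with a median log2 fold change of 0.19 and 78.9% of the 218 above 0 (genes that share sequence are not independent), while the 2057 others had a median of 0.01 and 51.0% above 0. None of the 218 was called (edgeR), and their summed level overlapped between groups, at 95797 to 105657 CPM without and 100045 to 131260 CPM with a tumor. Per 1000 counts summed over the 218 genes, Lepr had 5.89, 5.79 and 6.48 counts in tumor-free replicates 1 to 3 and 7.11, 7.48, 6.29 and 7.30 in tumor-bearing replicates 1 to 4. On this scale tumor-bearing replicate 3 again lay inside the tumor-free range. The difference was 0.22 on the log2 scale (exact two-sided permutation test, p = 0.0857), against the 0.40 of the fit. How many Lepr counts came from the shared sequences was not tested.

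**Figure D2:**
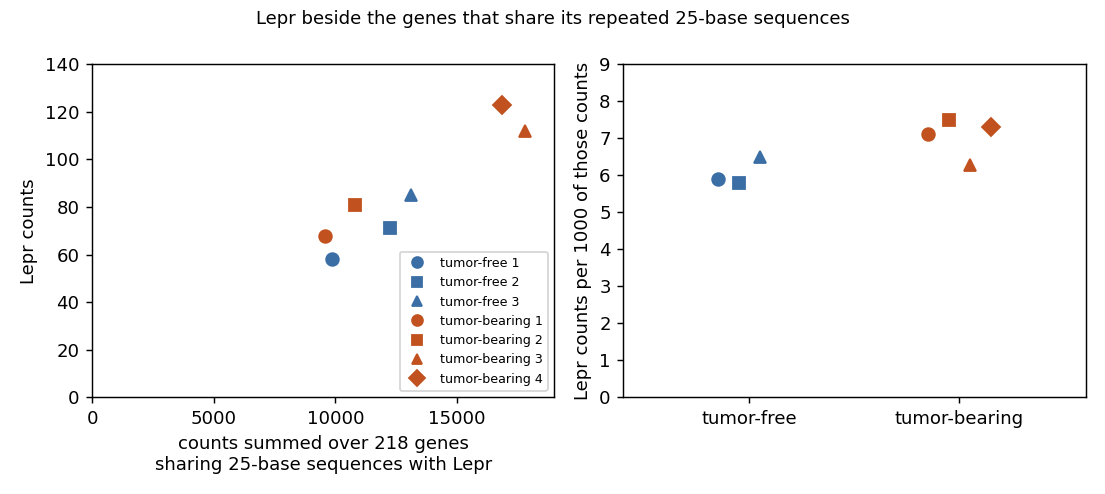
Left, Lepr counts (y axis) against the counts summed over the 218 tested genes whose transcripts share 25-base sequences with Lepr (x axis), 1 point per library. Right, Lepr counts per 1000 of those counts by group; tumor-free libraries (blue) lie between 5.79 and 6.48 and tumor-bearing ones (orange) between 6.29 and 7.48.

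Partners of leptin signalling gave little to set beside Lepr. Of 8 listed partners none passed the low count filter, although all 8 had a count in some library. Ptpn1, a phosphatase that restrains leptin signalling, had 0 to 10 counts, Leprot, the neighbouring leptin receptor overlapping transcript, 0 to 3, the signal transducer Stat3 0 to 4 and the adaptor Irs2 0 to 1. Jak2, the kinase bound to the receptor, had 0 to 1.

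Jag1 (Entrez 16449, chromosome 2, 137081451 to 137116520), which activates Notch on neighbouring cells, had 186, 19 and 25 counts in tumor-free replicates 1 to 3 and 8, 21, 29 and 28 in tumor-bearing replicates 1 to 4. In CPM these were 1809, 161 and 201 against 110, 221, 163 and 191. A single library, tumor-free replicate 1, held 58.9% of all Jag1 counts, 8.09 times the median of the others, and the remaining 6 libraries overlap. Means were 171 ± 47.2 CPM (SD, n = 4) with and 724 ± 940.1 CPM (SD, n = 3) without a tumor. The log2 fold change of -1.91 (SE 0.85, 95% interval -3.93 to 0.10) did not pass edgeR's test (unadjusted p = 0.0598, adjusted p = 0.990), and without tumor-free replicate 1 it was 0.01 (SE 0.35). Of genes tested, 0.321% had a log2 fold change at or below that of Jag1, and 50 of the 2495 had at least 50% of their counts in 1 library. The exact permutation p was 0.2. The nearest profiles were those of Rpl7a, Sephs1 and Efna5, at differences of 0.403, 0.496 and 0.522, each with its highest tumor-free value (730, 1381 and 2412 CPM) above its tumor-bearing range.

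**Figure D3:**
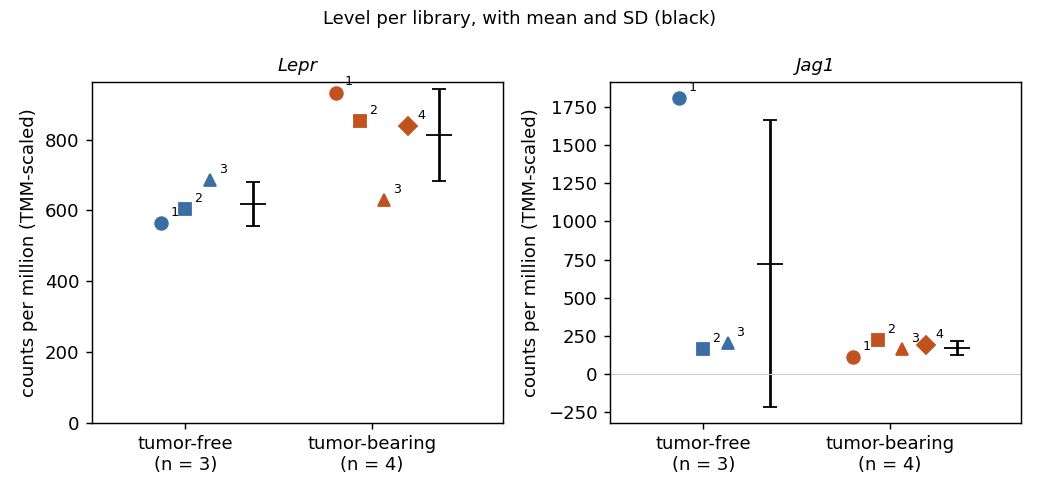
CPM on TMM-scaled totals (y axis) of Lepr (left) and Jag1 (right) in 3 tumor-free and 4 tumor-bearing libraries, numbered by replicate, with the mean and SD in black. For Jag1 the value of 1809 CPM in tumor-free replicate 1 stands apart from the other 6, which lie between 110 and 221.

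The Notch pathway was measured mainly at its receptor Notch2 and the coactivator Maml2. Of 26 listed partners of Jag1, 16 had a count in some library and 2 passed the filter, and neither was called. Notch2 had 776 ± 956 CPM (SD, n = 4) with and 326 ± 138 CPM (SD, n = 3) without a tumor (log2 fold change 1.09, SE 0.80). Its counts were 44, 45 and 21 in tumor-free and 161, 23, 57 and 49 in tumor-bearing libraries, so here too 1 library, tumor-bearing replicate 1, stood alone. Maml2, part of the Notch transcription complex, had 794 ± 121 against 1008 ± 571 CPM (-0.31, SE 0.37). The target gene Hes1 had 2 to 27 counts and Maml3 1 to 7, both under the filter. Ligands and targets at 0 in all 7 libraries included Dll1, Dll4, Hey1, Heyl, Hes5 and Nrarp.

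Of the factors that retain and feed blood-forming cells, none reached the filter. Cxcl12 (chromosome 6, 117168535 to 117181368) had 4, 1 and 1 counts in tumor-free replicates 1 to 3 and 2, 1, 1 and 2 in tumor-bearing replicates 1 to 4. Summed over groups, this was 17.4 CPM (exact Poisson 95% interval 6.39 to 37.9) without and 12.2 CPM (4.47 to 26.5) with a tumor, a ratio of 0.70 whose counting interval runs from 0.187 to 2.62. These intervals cover counting error only. The exact permutation p was 0.657. Kitl (chromosome 10, 100015615 to 100100416) had 0, 5 and 1 counts without a tumor and 2, 0, 0 and 0 with one. Its summed level was 17.4 CPM (6.39 to 37.9) against 4.06 CPM (0.492 to 14.7) with a tumor, a ratio of 0.233 with an interval of 0.0230 to 1.30 (exact permutation p = 0.543). Most of its 8 counts, 62.5%, came from tumor-free replicate 2.

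Vcam1 had 0, 0 and 2 counts without and 1, 1, 2 and 0 with a tumor, Il7 5, 3 and 1 against 1, 3, 5 and 4, and Angpt1 0, 1 and 0 against 0, 0, 1 and 2. The groups overlapped for each. Il7 was the best measured of these, with 26.4 CPM (14.1 to 45.1) with and 26.1 CPM (11.9 to 49.6) without a tumor, a ratio of 1.01 whose interval of 0.400 to 2.68 spans lower and higher levels. Permutation p-values, exact and two-sided, were 0.571 for Vcam1, 0.971 for Il7 and 0.714 for Angpt1. In GENCODE the antisense genes Gm43109, Gm16685 and Gm17473 overlap Vcam1, Il7 and Angpt1 at their 5′ ends. The 3′ ends of all protein-coding transcripts of these 3 genes lie outside the overlaps. The strand setting of the counting is unknown here, and whether any counts came from the overlaps was not tested.

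Receptors of the secreted factors were as sparse as the factors. Cxcr4 had 0 to 6 counts, Kit 0 in all 7 libraries, Il7r 0 to 3 and Tek 0. Of the proteases that release KIT ligand from the membrane, Adam17 had 0 to 3 counts and Mmp9 0. Other cytokines of the same lists were also near 0, with Flt3l, the ligand of FLT3, at 0 to 3 counts, Thpo, encoding thrombopoietin, at 0 to 3, Il15 at 0 to 1 and Angpt2 at 0 to 1, and the shared receptor chain Il2rg at 0 to 1. The partners of adhesion were better measured. Itga4, the integrin chain that binds VCAM1, had 37 to 100 counts, with 566 ± 59.3 CPM (SD, n = 4) with and 498 ± 107 CPM (SD, n = 3) without a tumor (log2 fold change 0.20, SE 0.23). Dpp4, a surface protease that inactivates CXCL12, had 6 to 29 counts (0.38, SE 0.51), and Cdh2, a cadherin, 5 to 19 (0.13, SE 0.39). Spp1, encoding osteopontin, had 1 to 14 counts and Cd44, a receptor of hyaluronan and osteopontin, 2 to 6. Foxc1 and Ebf3, transcription factors of CXCL12-producing stroma, had 2 to 11 and 1 to 16 counts and were not tested, and Ebf1 was at 0. No gene of these lists was called.

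The osteoclast factors were no better measured. Csf1 (chromosome 3, 107741048 to 107760469), the survival factor of osteoclast precursors, had 4, 1 and 3 counts in tumor-free and 0, 1, 2 and 1 in tumor-bearing libraries. That is 23.2 CPM (10.02 to 45.7) against 8.12 CPM (2.21 to 20.8) with a tumor, a ratio of 0.350 with a counting interval of 0.0771 to 1.31. The groups overlap, and the exact permutation p was 0.0857. Tnfsf11 had 0, 0 and 1 counts without and 0, 0, 2 and 0 with a tumor (exact permutation p = 1). Tnfrsf11b had 0 counts in all 3 tumor-free libraries, for which the exact Poisson interval over the group reaches 10.7 CPM. The tumor-bearing libraries had 0, 0, 0 and 4, where the 4 counts of replicate 4 make 8.12 CPM over the group. Its exact permutation p of 1 was fixed in advance and is not a result. With counts only in 1 library of the larger group, every split gives at least the observed difference. With 3 and 4 counts in all, no ratio of RANKL to osteoprotegerin was formed.

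**Figure D4:**
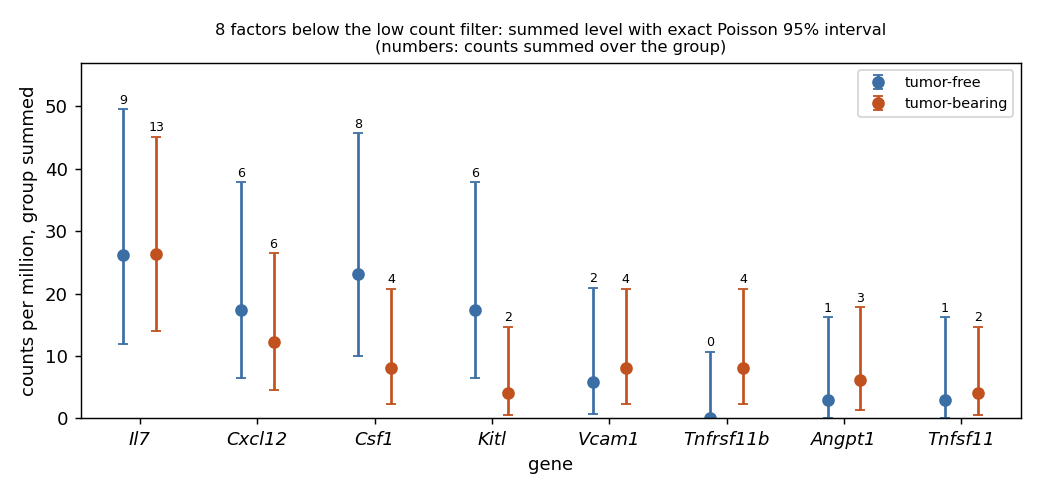
Summed level in CPM (y axis) of the 8 genes under the low count filter (x axis), tumor-free in blue and tumor-bearing in orange, with exact Poisson 95% intervals for counting error and the summed counts above them. The intervals of the groups overlap for all 8 genes.

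The receptors of the osteoclast factors had more counts than the factors. Tnfrsf11a, encoding RANK, had 24, 12 and 24 counts without and 21, 26, 44 and 36 with a tumor, or 233, 102 and 193 against 288, 273, 247 and 246 CPM. Every tumor-bearing library lay above every tumor-free one, as for 2.20% of all genes tested, and the log2 fold change was 0.58 (SE 0.33, adjusted p = 0.990, edgeR). Csf1r, the receptor of CSF1, had 8 to 24 counts and 137 ± 25.7 CPM (SD, n = 4) against 131 ± 50.5 CPM (SD, n = 3; 0.08, SE 0.33). Lgr4, another receptor of RANKL, had 5 to 88 counts (0.27, SE 0.92), with the highest in tumor-bearing replicate 2. Tnfsf10, encoding the ligand TRAIL that osteoprotegerin also binds, had 9 to 20 counts (-0.09, SE 0.41), and the RANK adaptor Traf6 1 to 5. Of other colony-stimulating factors, Csf2 had 0 to 3 counts and Csf3 and Il34, the second ligand of CSF1R, were at 0.

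Markers of osteoclasts themselves were uneven: Calcr, Dcstamp, Ocstamp and Mmp9 were at 0 in all 7 libraries, Acp5 had 0 to 1 and Ctsk 0 to 2 counts. The summed level of 13 osteoclast markers was 545 to 713 CPM with and 433 to 572 CPM without a tumor, of which Tnfrsf11a, Csf1r and Itgb3 made up most. The part of such cells in the Tnfrsf11a values was not tested.

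Of 14 listed genes by which osteoblasts set RANKL and osteoprotegerin output or otherwise signal to osteoclasts, 3 were tested and none was called. Pth1r, the receptor of parathyroid hormone, had 162 ± 15.6 CPM (SD, n = 4) with and 238 ± 22.2 CPM (SD, n = 3) without a tumor (log2 fold change -0.52, SE 0.24), with no overlap between groups, as for 1.32% of all genes tested on that side. Lifr, a receptor of the cytokine LIF, had 27 to 90 counts (-0.14, SE 0.27). Sema3a, an osteoblast product that restrains osteoclasts, had 3 to 20 (0.79, SE 0.38). The vitamin D receptor gene Vdr had 0 to 4 counts in 6 libraries and 68 in tumor-bearing replicate 3.

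Over all 82 partners in the 10 lists, 61 had a count, 12 were tested and 0 were called higher or lower (lowest adjusted p = 0.990, edgeR). Of the 12, 8 had a log2 fold change above 0 and 4 below, with a median of 0.17, against 0.04 for all genes tested.

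Marrow stromal cells that carry the leptin receptor would be marked by more than Lepr. Of 15 such markers, Adipoq and Ebf1 were at 0 in all 7 libraries, Pdgfrb had 0 to 2 counts, Pdgfra 0 to 5 and Grem1 0 to 1, beside the low Cxcl12 and Kitl. The lipase gene Lpl had 124 to 203 and Prrx1 8 to 17. Hp had 1 to 27 counts, Ebf3 1 to 16, Foxc1 2 to 11 and Esm1 3 to 7, so each had a count in every library. Nt5e had 0 to 21, with the highest in tumor-bearing replicate 3. The list summed to 2163 to 3415 CPM with and 2267 to 2572 CPM without a tumor, most of it from Lpl and Lepr. The 9 endothelial markers, among them Kdr and Cdh5, summed to at most 8.49 CPM in any library. Among 12 leukocyte markers found in the files, 7 were at 0, and Itgam, with 19 to 45 counts, made up most of the rest. Erythroid markers summed to 75.04 to 123 CPM with and 127 to 195 CPM without a tumor, megakaryocyte markers to at most 32.2 CPM, and adipocyte markers, nearly all from Lpl, to 1030.1 to 1701 against 1281 to 1638 CPM. Chondrocyte markers, mostly Sox9, summed to 617 to 2870 CPM with and 862 to 1089 CPM without a tumor. The highest sum was that of tumor-bearing replicate 2, with 1745 CPM of Sox9 and 967 CPM of Col2a1. Sox9 had 562 to 737 CPM in the other tumor-bearing libraries. The osteoblast markers summed to 1282 to 1838 CPM with and 1716 to 2772 CPM without a tumor, with 6 of the 7 tested below 0 in log2 fold change and none called. The part of these differences in the values of the 10 genes was not tested.

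Other settings left the values of Lepr on the same side. Over 17 fits its log2 fold change ran from 0.29 to 0.44, with adjusted p between 0.793 and 0.9997. Over the 16 fits that tested it, Jag1 ran from -2.64 to 0.01, the last without tumor-free replicate 1.

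**Figure D5:**
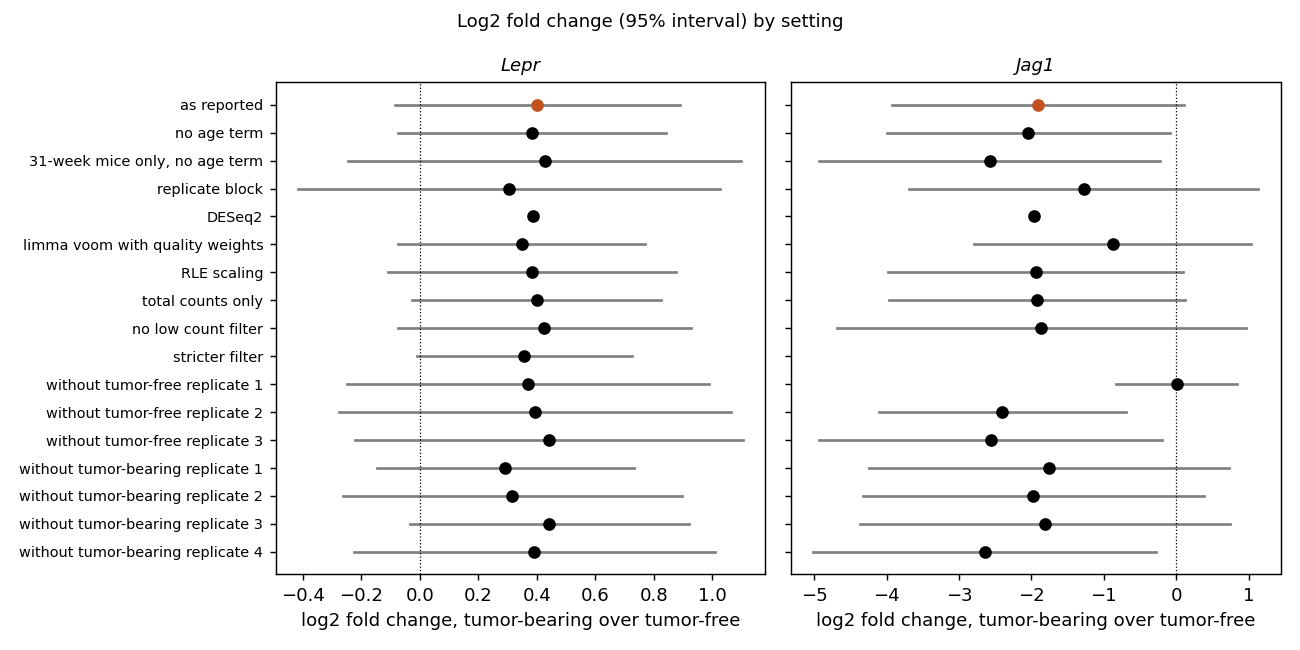
Log2 fold change of tumor-bearing over tumor-free mice (x axis) with its 95% interval, for Lepr (left) and Jag1 (right), under each setting (rows; orange, as reported). DESeq2 is shown without an interval and the stricter filter removed Jag1; only the fit without tumor-free replicate 1 moves Jag1 to 0.01.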

How the data were processed

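Per the labels' protocols, Trizol RNA from 2000 sorted cells of each mouse went into a custom CelSeq protocol, which reads 3′ ends and adds molecular identifiers. Alignment tools and build, per the submitters' processing notes, were TopHat2 2.0.10 and SAMtools on mm10. How reads were counted (program, gene models, strand, collapsing of identifiers, reads with several matches) is not given in these sources. The authors deposited raw whole-number counts for Entrez gene IDs, with each mouse in a file of its own. A RefSeq table of GRCm38.p6 named 23666 of the 23725 IDs.

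The full genotype of the mice is not reported here. The 10 genes and the partner and marker lists were chosen with earlier results of these data known. All 10 genes are named, with up to 4 partners of highest mean count per list, marker genes at 0 or leading their list, and the 3 nearest profiles of each tested gene; other genes were named after their values were seen. Counts were filtered with filterByExpr (minimum count 10, total 15) of edgeR 4.0.16, scaled by TMM (factors 0.945 to 1.05) and fitted with glmQLFit (robust) and glmQLFTest in R 4.3.3, with age as a factor. P-values were adjusted by Benjamini-Hochberg over the 2495 genes at 0.05; the prior count was 0.125. CPM used TMM-scaled totals, apart from the floor for a count of 0. Single genes were also compared by two-sided exact permutation tests. Poisson and ratio intervals are exact at 95%, and the floor is 3 counts over the unscaled library total.

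Shared sequences were 25-base runs found on either strand in at least 50 genes, reading for each gene its longest GENCODE vM21 transcript (a protein-coding one where it has any) and dropping runs in which 2 letters made up 23 bases or more. Profiles were compared as log2(CPM + 10) centred on the gene's mean. The fit was repeated without the age term, within 31-week mice, with a replicate block, with DESeq2 1.42.0, limma 3.58.1 (voom), RLE or no scaling factors, no filter or at least 30 counts in 3 libraries, and leaving out each library.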

Additional observations from a re-analysis of the deposited data

Results flagged for a closer look

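Of 43 genes checked for a tumor-bearing library far from the other 3, 9 had one by Dixon's criterion at the 95% level. Chance gives about 1 in 20 groups of continuous values, but 7 of the 9 have 3 libraries at 0, where the criterion is met by any count, so the 1 in 20 does not apply to them. The other two are Notch2 and Vdr. Notch2 had 2208 CPM in tumor-bearing replicate 1 against 242 to 334 CPM in the others, Vdr 382 CPM in replicate 3 against 0 to 21.0 CPM, and Tnfrsf11b 27.3 CPM (4 counts) in replicate 4 against 0. Kitl had 27.4 CPM in replicate 1 and Tnfsf11 11.2 CPM in replicate 3, each from 2 counts, with 0 in the other 3. Flt3l had 20.5 CPM (3 counts) in replicate 4. The last 3 are single counts: Il2rg with 5.62 CPM in replicate 3, Il15 with 6.82 CPM in replicate 4 and Angpt2 with 10.5 CPM in replicate 2.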

How the results depend on the processing

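No gene, and none of the 10 genes, was called under any of the 17 fits, including the unfiltered fit of all 10 (13344 genes, 203 higher and 253 lower at an unadjusted p under 0.05) and DESeq2 (13 higher, 36 lower). Lepr kept its sign in each fit, from 0.29 to 0.44 without 1 library. Relative to the other genes holding its shared 25-base sequences, an alternative added after seeing the data, it was 0.22. Jag1 ran from -2.64 to 0.0077 without 1 library; only without tumor-free replicate 1 did its sign turn. Whether the replicate numbers follow the matching by litter is not known here, and litter was not in the main fit. Deviations from group means correlated at -0.20, -0.12 and -0.14 for same-numbered libraries, and from -0.26 to 0.24 for the others. Such values, centred within small groups, cannot show whether the samples are paired. With the replicate block, which left out tumor-bearing replicate 4, the log2 fold change was 0.31 for Lepr and -1.28 for Jag1. That fit called 0 genes.

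Without 1 library, differences of mean CPM turned sign for 5 of the 8 sparse genes (Cxcl12, Kitl, Tnfsf11, Il7 and Angpt1), kept it for Csf1 and Vcam1, and reached 0 for Tnfrsf11b. They ran from -9.40 to 6.03 for Cxcl12, -18.4 to 2.83 for Kitl, -24.4 to -9.19 for Csf1, -2.69 to 2.81 for Tnfsf11, 0 to 9.10 for Tnfrsf11b, 0.807 to 8.87 for Vcam1, -11.9 to 8.39 for Il7 and -0.957 to 4.82 for Angpt1. On the log2(CPM + 10) scale Tnfsf11 (-0.013) and Il7 (0.038) turned sign, as did Angpt1 in 31-week mice only (-2.37 CPM). In the unfiltered fit their adjusted p lay between 0.793 and 0.993. The ranges without 1 library show how far a single library moves a difference, not the smallest difference that could be resolved. With at most 5 counts per library, no difference was resolved for any of the 8 genes.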

Other observations

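Counts across the whole table were related to widely shared sequence as well. Of 18653 genes whose transcript held no shared 25-base sequence, 6.95% passed the low count filter, and their median count was 0.143 per library. Of 2380 genes with at least 1 such sequence 41.2% passed, with a median of 4.57, and of 588 genes with at least the 46 of Lepr 56.3% passed, with a median of 13.9. Among transcripts of 4500 to 6500 bases, the length range around Lepr-203, the shares were 13.1%, 39.3% and 54.0%. Of the 12 partners tested, Maml2, Tnfsf10 and Itga4 held 17, 25 and 1 shared sequences. Of the tested markers other than Lepr, the leukocyte marker Itgam held 15, the osteoblast marker Phex 4 and the stromal marker Lpl 4.

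Genes with most of their counts in 1 library were spread over all 7. At least 50% of the counts lay in a single library for 50 tested genes, 15 of them in tumor-bearing replicate 4, 10 in tumor-bearing replicate 3, 8 in tumor-free replicate 2 and 5 in tumor-free replicate 1, where Jag1 belongs.

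Dlk1, a membrane ligand related to those of Notch, had 3, 6 and 5 counts in tumor-free replicates 1 to 3 and 0, 1, 1 and 0 in tumor-bearing replicates 1 to 4, or 40.1 ± 10.9 CPM (SD, n = 3) against 4.03 ± 5.07 CPM (SD, n = 4). It lay under the low count filter. In edgeR's fit without that filter its log2 fold change was -3.02 (SE 0.93, unadjusted p = 0.00289), which did not pass (adjusted p = 0.793). It was picked from the partner lists after its values were seen.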
